A study of Mus musculus with 10 samples.

Results

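The genes described here are targets of the transcription factor ATF4 and genes of the amino acid response: 42 genes, listed by name, of which 40 could be measured among the 19938 genes that have a probeset of their own on the array. They were measured in mouse embryonic fibroblasts (MEFs), wild-type connective tissue cells that had been irradiated with 1000 rad so that they no longer divided, and that served as the stromal layer for leukemia cells. The question of the experiment was whether this layer responds to the leukemia cells and to the drug given to them. There were 3 arrays of MEFs + ALL + nilotinib, in which Bcr/Abl transgenic 8093 precursor B acute lymphoblastic leukemia (ALL) cells grew behind a Transwell membrane and 16 nM nilotinib was given for 9 days, 1 array of MEFs + ALL + DMSO, in which the same ALL cells received only the solvent, 3 arrays of MEFs + nilotinib, with the drug and without ALL cells, and 3 arrays of MEFs + DMSO, with the solvent alone. All 10 arrays shared the irradiation and the day of harvest. By the methods the 8093 cells were cultured in a medium with added glutamine, a mercaptoethanol reductant and interleukin-3. Nilotinib inhibits the Abl kinase. The 8093 cells come from 1 leukemia line, and by the methods each triplicate is 3 dishes of MEFs, so that p-values reflect how dishes vary and not how isolates of MEFs vary.

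ATF4 is a leucine zipper protein whose mRNA is translated better when the initiation factor eIF2 is phosphorylated, which happens when amino acids run short, when unfolded proteins collect in the endoplasmic reticulum, when heme is lacking or in viral infection. ATF4 then pairs with C/EBP proteins on C/EBP-ATF response elements and raises genes that make, import and charge amino acids, together with genes that damp the response again. Because ATF4 is controlled largely at translation, its mRNA level says little about its activity, and its targets are read instead.

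Of the 42 genes, 34 had a promoter window in the RefSeq table used (GRCm38.p6), which runs from 250 bases before to 50 bases after an annotated start. The C/EBP-ATF response element was searched as TGATGNAA on both strands. It was found within the 250 bases before a start of 12 of the 34 genes, 35.3%, against 3.91% of all 27025 genes in the table (3.45% of its 32851 windows). In the whole window of 300 bases it was found for 15 of the 34, 44.1%, against 4.51% of all genes. The genes were listed because they are known for this response, so these shares describe the list and do not test it. The palindrome TGACGTCA, the cyclic AMP response element, was found before a start of 1 of the 34, Ppp1r15a, 2.94% against 1.77% of all genes. The sequences of Chac1, which had the lowest difference of the 40 genes in MEFs + ALL + nilotinib over MEFs + DMSO, of Slc7a11, which was called lower on the lone MEFs + ALL + DMSO array, an array that also carried markers of ALL cells, and of Asns, a textbook target of ATF4, are shown with the matches in capitals, each written along the strand of its gene and ending at the base before the start. Chac1 is at chr2:119350992-119351241 on the plus strand, Slc7a11 at chr3:50443614-50443863 on the minus strand and Asns at chr6:7693210-7693459 on the minus strand.
Chac1: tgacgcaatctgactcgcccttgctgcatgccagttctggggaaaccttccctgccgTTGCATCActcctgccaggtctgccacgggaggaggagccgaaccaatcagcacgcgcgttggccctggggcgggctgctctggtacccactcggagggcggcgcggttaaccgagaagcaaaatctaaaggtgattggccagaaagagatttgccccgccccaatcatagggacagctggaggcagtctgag
Slc7a11: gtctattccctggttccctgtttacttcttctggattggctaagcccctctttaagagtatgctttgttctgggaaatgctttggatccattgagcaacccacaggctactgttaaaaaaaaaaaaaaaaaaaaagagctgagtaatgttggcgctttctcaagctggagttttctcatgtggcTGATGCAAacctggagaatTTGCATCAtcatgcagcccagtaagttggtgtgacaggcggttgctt
Asns: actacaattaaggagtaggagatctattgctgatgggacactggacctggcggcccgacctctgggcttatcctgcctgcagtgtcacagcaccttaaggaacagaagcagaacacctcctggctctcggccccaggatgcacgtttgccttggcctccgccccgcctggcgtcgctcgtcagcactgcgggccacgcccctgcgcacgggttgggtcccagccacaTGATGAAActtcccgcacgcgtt
Chac1 had 1 match, on the opposite strand, whose first base lay 193 bases before the start. Slc7a11 had 2 matches, on the strand of the gene at 66 bases and on the opposite strand at 47 bases before the start, and Asns had 1, on its own strand, at 23 bases. In Trib3 the only match lay after the start, beginning at base 15 of the transcript on the opposite strand, and it is shown with its surroundings, 30 bases at chr2:152344028-152344057 on the minus strand.
Trib3: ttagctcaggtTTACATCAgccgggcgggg
A match is a description of these letters and not evidence of binding.

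**Figure D1:**
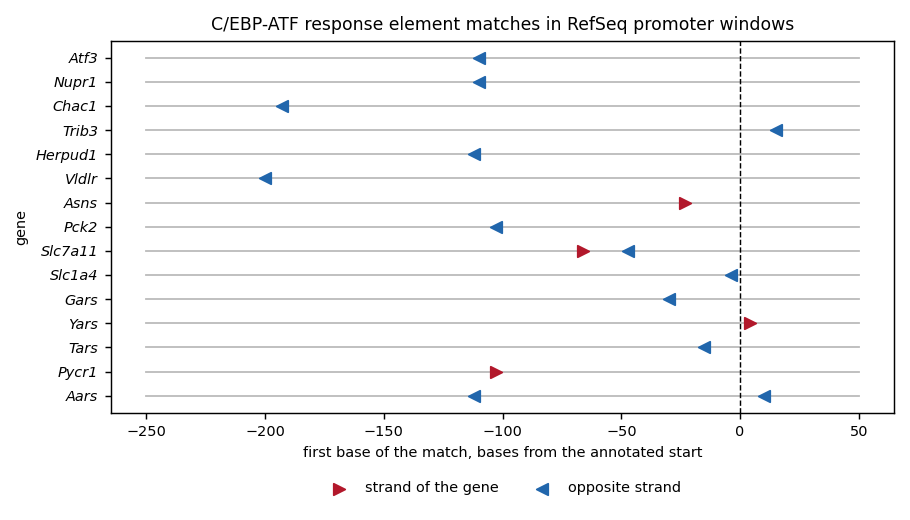
Position of each TGATGNAA match, given as the first base of the match in bases from the annotated start (horizontal axis), in the 15 genes (vertical axis) that hold one in the window of 250 bases before to 50 bases after the start. Red triangles are matches on the strand of the gene and blue triangles on the opposite strand, and the dashed line marks the start; Slc7a11 and Aars each have 2 matches.

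The values are log2 signals of probesets, 1 probeset to a gene, and are compared only between arrays and never between genes. The table holds 35557 probesets, array medians ran from 6.94 to 7.01, and the mean of each of the 40 genes over the 10 arrays was at least 7.12. Pycr1, which makes proline, had no probeset under its own symbol, and Aars shares its probeset with another gene, so neither was analysed. Groups were compared with limma across all probesets, with 1 estimate of the spread for the 4 groups. A gene is called higher or lower where the adjusted p (Benjamini-Hochberg over all 35557 probesets) is under 0.05. Differences are log2 differences with their standard error. The fibroblast identity of the layer was checked on 11 markers, whose mean log2 signal was 11.81 to 11.84 in MEFs + ALL + nilotinib, 11.62 in MEFs + ALL + DMSO, 11.73 to 11.81 in MEFs + nilotinib and 11.72 to 11.79 in MEFs + DMSO. Between MEFs + ALL + nilotinib and MEFs + DMSO 1 of the 11 was called higher and 0 lower (0.732% and 0.11% of all genes). Between MEFs + ALL + DMSO and MEFs + DMSO 2 were called higher and 1 lower (8.28% and 4.45% of all genes). The sum of their linear signals was 61752 to 62810 in MEFs + ALL + nilotinib and 55267 on the MEFs + ALL + DMSO array. It was 59544 to 65734 in MEFs + nilotinib and 65630 to 67101 in MEFs + DMSO. Macrophage markers were also present in every group, with a mean log2 signal over 6 genes between 9.12 and 9.41 on all 10 arrays.

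RNA of leukemia cells on the arrays was read from 10 B lymphoblast and 9 leukocyte markers. The sum of the B lymphoblast signals, on the linear scale, was 1126 to 1179 in MEFs + ALL + nilotinib, 5491 on the MEFs + ALL + DMSO array, 1086 to 1158 in MEFs + nilotinib and 1124 to 1195 in MEFs + DMSO. The sum of the leukocyte signals was 3120 to 3532 in MEFs + ALL + nilotinib, 8802 on the MEFs + ALL + DMSO array, 2808 to 3384 in MEFs + nilotinib and 3002 to 3391 in MEFs + DMSO. Igll1, part of the surrogate light chain of precursor B cells, was at 6.45, 6.77 and 6.64 in MEFs + ALL + nilotinib, at 11.08 on the MEFs + ALL + DMSO array and at 6.81, 6.91 and 6.99 in MEFs + DMSO. Ebf1, a transcription factor of early B cells that the MEFs without ALL cells also gave signal for, was at 9.22, 9.10 and 9.29 in MEFs + ALL + nilotinib, at 10.15 on the MEFs + ALL + DMSO array and at 9.10, 9.06 and 9.07 in MEFs + DMSO. The co-cultures with nilotinib thus stood within or close to the range of MEFs without ALL cells on both lists, and the lone co-culture with DMSO stood far above it. The methods state that 2 further MEFs + ALL + DMSO dishes were left out because ALL cells had got into them. Every value of the MEFs + ALL + DMSO array below is read beside these markers, and in that array RNA from ALL cells and a change in the MEFs cannot be told apart. In such RNA from whole dishes, fewer cells of a type and less RNA per cell cannot be told apart either.

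**Figure D2:**
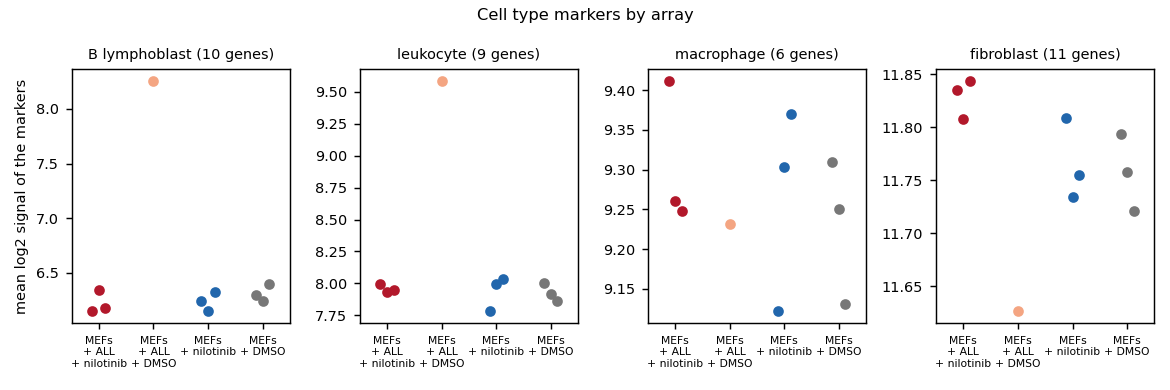
Mean log2 signal (vertical axes) of the B lymphoblast, leukocyte, macrophage and fibroblast markers on each array, by group. The MEFs + ALL + DMSO array stands at 8.26 for the B lymphoblast and 9.59 for the leukocyte markers, above the other 9 arrays, whose highest means are 6.40 and 8.04.

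In MEFs that had shared their medium with ALL cells under nilotinib, Chac1, Trib3 and Cth were called lower than in MEFs + DMSO. Their signals were 0.538, 0.623 and 0.709 of those in MEFs + DMSO, and none of the 40 genes was called higher. The 3 called genes are 7.5% of the 40, against 0.11% of all genes called lower and 0.732% called higher in that comparison. Against MEFs that had received nilotinib without ALL cells, Chac1 and Trib3 were called lower, 2 of 40, where 0.0502% of all genes were called lower and 0.191% higher. Both comparisons use the same 3 MEFs + ALL + nilotinib arrays, so they are not independent. In MEFs given nilotinib without ALL cells none of the 40 genes was called against MEFs + DMSO, nor was any gene on the array (0% called), although at an unadjusted p under 0.05 limma marked 3 of the 40 as lower, where the share of all genes was 3.72%, and 4 as higher, where it was 6.32%.

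Sesn2 and Tars, at -0.57 and -0.56, lay between Trib3 and Cth and were not called. The median log2 difference of the 40 genes was -0.13 in MEFs + ALL + nilotinib over MEFs + DMSO, against 0.00 for all genes, and -0.15 over MEFs + nilotinib, against -0.01 for all genes. In 18 of the 40 genes all 3 MEFs + ALL + nilotinib arrays lay below all 6 arrays of MEFs without ALL cells, where 3.22% of all genes did so, and in 2, Cebpb and Slc1a5, they lay above all 6, where 6.15% of all genes did. Against MEFs + DMSO alone 26 of the 40 lay below without overlap (11.7% of all genes) and 3 above (16.3%), and against MEFs + nilotinib alone 21 lay below (7.14%). An unadjusted p under 0.05 was reached by 18 of the 40 on the lower side (6.96% of all genes) and by 1 on the higher side (10.9%) against MEFs + DMSO, and by 17 (4.22%) and 2 (5.23%) against MEFs + nilotinib. Most of these differences were small and did not pass the adjusted test, and genes that share a regulator are not independent of each other. By array, 31 to 34 of the 40 genes lay below their MEFs + DMSO mean in MEFs + ALL + nilotinib, 33 on the MEFs + ALL + DMSO array and 14 to 21 in MEFs + nilotinib. Of all 19938 genes, 11961 lay below that mean on the MEFs + ALL + DMSO array. By group mean, 9967 of them did in MEFs + ALL + nilotinib and 9435 in MEFs + nilotinib, and counts of all genes by single array were not made for these groups.

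**Figure D3:**
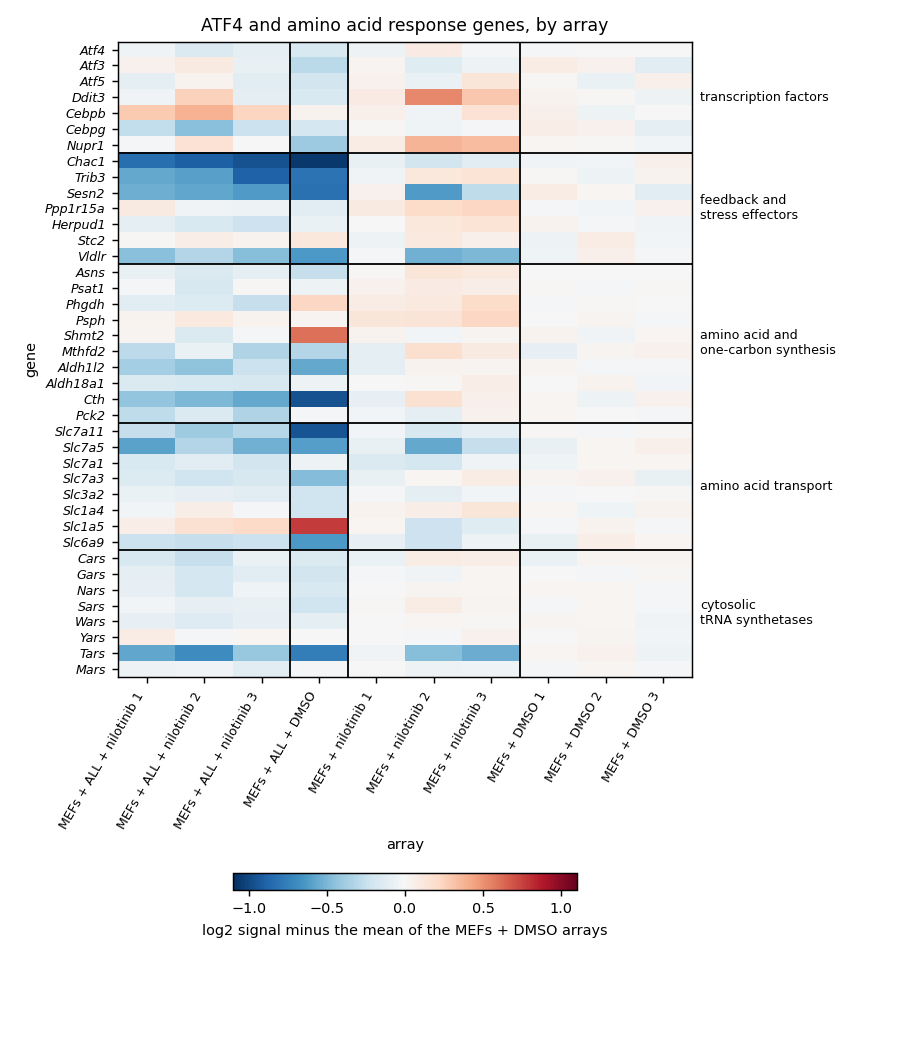
Log2 signal minus the mean of the 3 MEFs + DMSO arrays for the 40 measured genes (rows, ordered by role) on the 10 arrays (columns, by group), with blue for lower and red for higher. Chac1, Trib3, Cth and Slc7a11 are blue on all 4 arrays of MEFs with ALL cells, and Shmt2 and Slc1a5 are red on the MEFs + ALL + DMSO array.

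**Figure D4:**
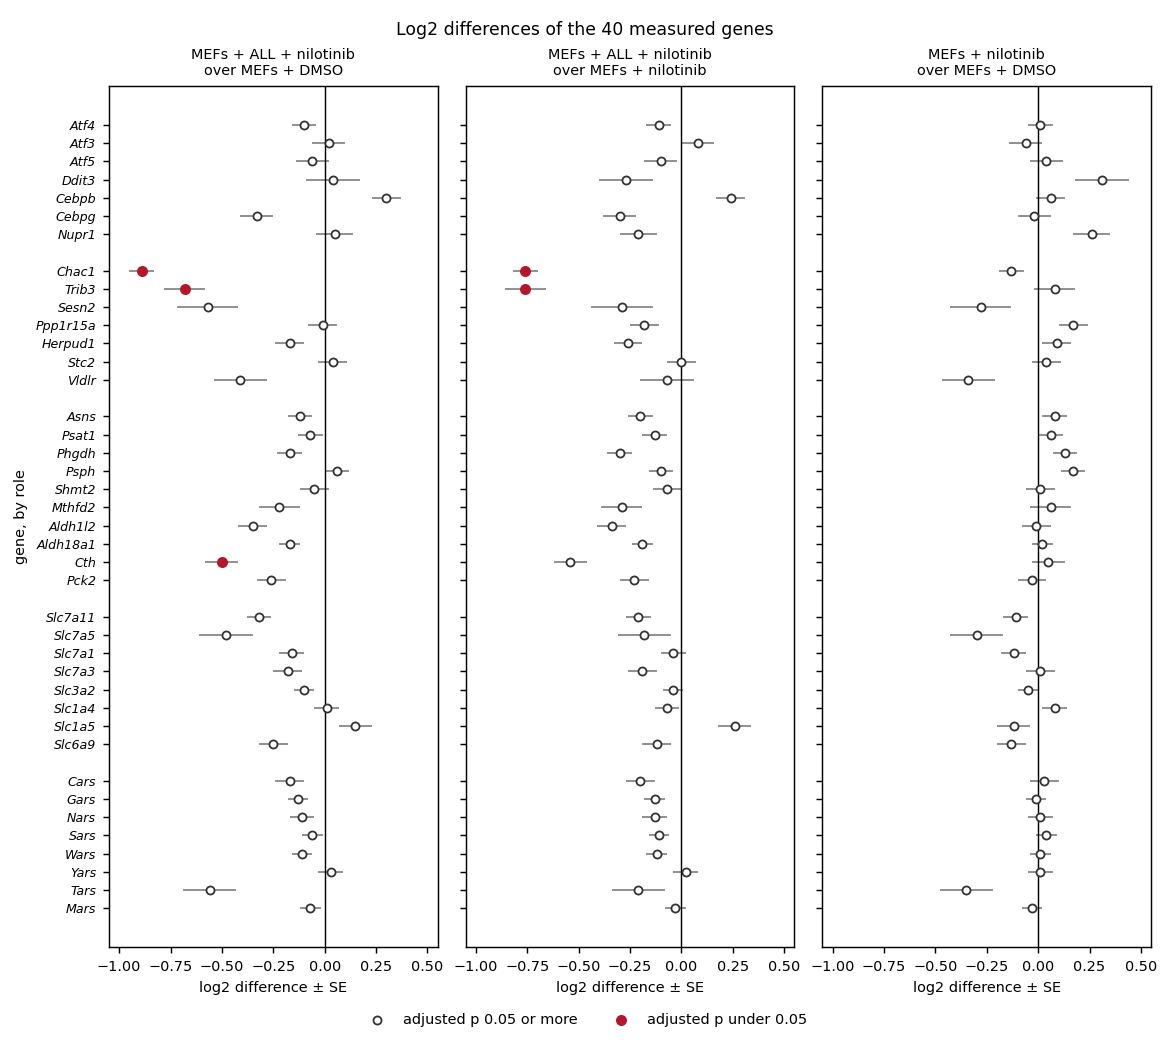
Log2 difference with its standard error (horizontal axes) for each of the 40 genes (vertical axis, by role) in MEFs + ALL + nilotinib over MEFs + DMSO (left), over MEFs + nilotinib (middle) and in MEFs + nilotinib over MEFs + DMSO (right). Filled points mark an adjusted p under 0.05, which Chac1 and Trib3 reached in the left and middle panels and Cth in the left panel alone.

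Among the 7 transcription factors none was called in any comparison. Atf4 itself was at 10.69, 10.58 and 10.64 in MEFs + ALL + nilotinib, 10.57 in MEFs + ALL + DMSO, 10.68, 10.83 and 10.73 in MEFs + nilotinib and 10.73, 10.74 and 10.74 in MEFs + DMSO. The co-cultures lay just below the solvent controls and overlapped with the drug controls, and the difference from MEFs + DMSO was -0.10 ± 0.06 (limma, adjusted p = 0.478). Cebpg, a C/EBP partner of ATF4, was at 8.97, 8.78 and 9.00 in MEFs + ALL + nilotinib, 9.05 in MEFs + ALL + DMSO, 9.25, 9.19 and 9.22 in MEFs + nilotinib and 9.31, 9.29 and 9.13 in MEFs + DMSO. All 4 arrays with ALL cells lay below the 6 without, but the difference of -0.33 ± 0.08 in MEFs + ALL + nilotinib over MEFs + DMSO did not pass (limma, adjusted p = 0.119). Cebpb, another partner and an activator of inflammatory genes, ran the other way, with 9.15, 9.24 and 9.10 in MEFs + ALL + nilotinib, 8.90 in MEFs + ALL + DMSO, 8.92, 8.82 and 9.02 in MEFs + nilotinib and 8.92, 8.80 and 8.86 in MEFs + DMSO. Its 3 co-culture arrays with nilotinib lay above the other 7, and its difference of 0.30 ± 0.07 over MEFs + DMSO did not pass either (limma, adjusted p = 0.117). Atf3, Atf5, Ddit3 and Nupr1 differed by -0.06 to 0.05 between MEFs + ALL + nilotinib and MEFs + DMSO. Ddit3, which encodes the stress factor CHOP, and Nupr1 had their highest means in MEFs + nilotinib, at 9.32, 9.76 and 9.53 for Ddit3 against 9.27, 9.24 and 9.17 in MEFs + DMSO, a difference of 0.31 ± 0.13 that did not pass (limma, adjusted p = 0.428).

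The feedback and stress effectors held the largest differences. Chac1, which breaks down glutathione and is among the genes most sensitive to ATF4, was at 8.01, 7.94 and 7.88 in MEFs + ALL + nilotinib, 7.78 in MEFs + ALL + DMSO, 8.76, 8.64 and 8.72 in MEFs + nilotinib and 8.80, 8.81 and 8.90 in MEFs + DMSO. The arrays with ALL cells and those without did not overlap. The difference was -0.89 ± 0.06 over MEFs + DMSO (limma, adjusted p = 0.00524) and -0.76 ± 0.06 over MEFs + nilotinib (limma, adjusted p = 0.00599). Trib3, a pseudokinase that binds ATF4 and damps its activity, was at 9.04, 9.00 and 8.71 in MEFs + ALL + nilotinib, 8.79 in MEFs + ALL + DMSO, 9.56, 9.72 and 9.75 in MEFs + nilotinib and 9.61, 9.54 and 9.64 in MEFs + DMSO. Again the groups with and without ALL cells did not overlap, and replicate 3 of MEFs + ALL + nilotinib was the lowest of all 10 arrays. The difference was -0.68 ± 0.10 over MEFs + DMSO (limma, adjusted p = 0.0332) and -0.76 ± 0.10 over MEFs + nilotinib (limma, adjusted p = 0.0382). Leaving out a single array ended the call of Trib3 in MEFs + ALL + nilotinib over MEFs + DMSO for 8 of the 9 replicated arrays, all except replicate 1 of MEFs + nilotinib, and over MEFs + nilotinib for all 9, whereas Chac1 remained called in both comparisons without any one of them. Without single replicates the adjusted p of Trib3 ran from 0.0427 to 0.145 over MEFs + DMSO and from 0.0674 to 0.177 over MEFs + nilotinib.

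Sesn2, which restrains mTORC1 when leucine is short, was at 8.98, 8.95 and 8.90 in MEFs + ALL + nilotinib, 8.70 in MEFs + ALL + DMSO, 9.57, 8.90 and 9.24 in MEFs + nilotinib and 9.60, 9.54 and 9.40 in MEFs + DMSO. The co-cultures lay below MEFs + DMSO, but the drug controls spread over both ranges (SD 0.33, n = 3), and the difference of -0.57 ± 0.15 over MEFs + DMSO did not pass (limma, adjusted p = 0.133). Vldlr, a lipoprotein receptor, had the same outline, with 8.66 in replicate 1 of MEFs + nilotinib and 8.14 and 8.18 in the other replicates. Its difference was -0.41 ± 0.13 over MEFs + DMSO (limma, adjusted p = 0.192). Herpud1, which serves the degradation of proteins from the endoplasmic reticulum, lay below all 6 arrays without ALL cells in MEFs + ALL + nilotinib, and its difference of -0.17 ± 0.07 over MEFs + DMSO did not pass (limma, adjusted p = 0.269). Ppp1r15a, which encodes the eIF2 phosphatase subunit GADD34, and Stc2 differed from MEFs + DMSO by -0.01 and 0.04.

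**Figure D5:**
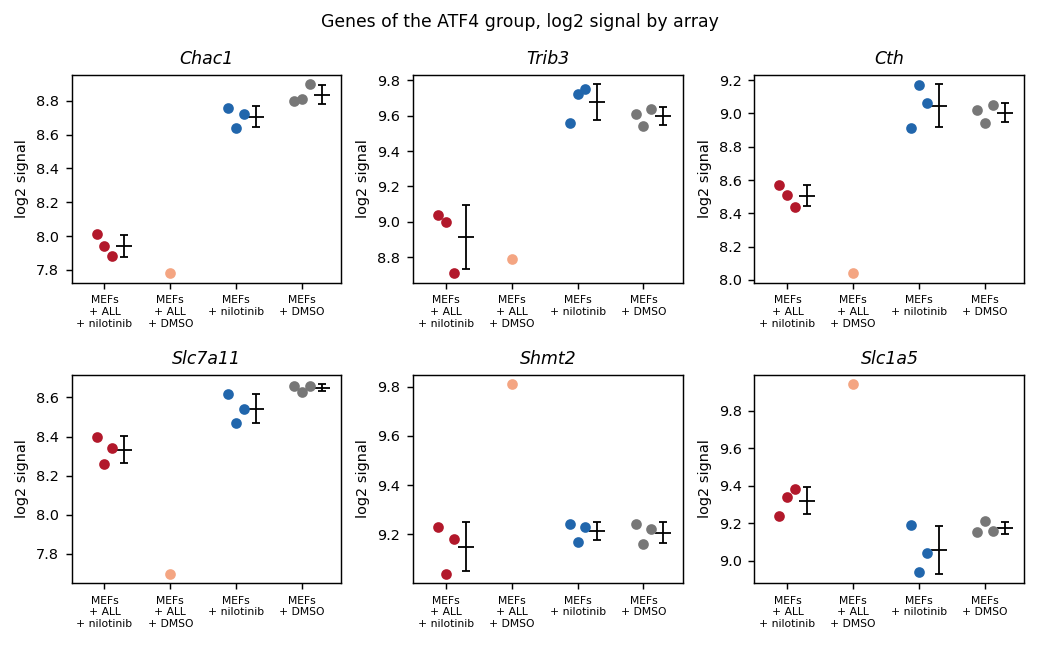
Log2 signal (vertical axes) of Chac1, Trib3, Cth, Slc7a11, Shmt2 and Slc1a5 on each array, by group, with the mean and SD of each group of 3 beside its points. For Chac1, Trib3, Cth and Slc7a11 the 4 arrays with ALL cells lie below the 6 without, and for Shmt2 and Slc1a5 the MEFs + ALL + DMSO array lies above all others, at 9.81 and 9.94.

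Of the 10 measured genes for amino acid and one-carbon synthesis, Cth was called lower and 9 had a negative difference in MEFs + ALL + nilotinib over MEFs + DMSO, with a median of -0.17. In that comparison 9967 of all 19938 genes had a negative difference, with a median of 0.00. Cth, which makes cysteine from cystathionine, was at 8.57, 8.51 and 8.44 in MEFs + ALL + nilotinib, 8.04 in MEFs + ALL + DMSO, 8.91, 9.17 and 9.06 in MEFs + nilotinib and 9.02, 8.94 and 9.05 in MEFs + DMSO. The arrays with ALL cells lay below all 6 without. Its difference was -0.50 ± 0.08 over MEFs + DMSO (limma, adjusted p = 0.0425), and over MEFs + nilotinib it was -0.54 ± 0.08 and just missed the threshold (limma, adjusted p = 0.0596). The call over MEFs + DMSO was lost without any 1 of the replicated arrays other than replicate 1 of MEFs + nilotinib (adjusted p 0.0556 to 0.181 in those 8 fits), and also when each array was centred on its median. Aldh1l2, a mitochondrial enzyme of folate metabolism, was at 9.02, 8.95 and 9.15 in MEFs + ALL + nilotinib, 8.83 in MEFs + ALL + DMSO, 9.29, 9.43 and 9.42 in MEFs + nilotinib and 9.42, 9.37 and 9.38 in MEFs + DMSO. Its groups with and without ALL cells did not overlap, and its difference of -0.35 ± 0.07 over MEFs + DMSO did not pass (limma, adjusted p = 0.0797). Pck2, the mitochondrial phosphoenolpyruvate carboxykinase, was at 9.39, 9.51 and 9.34 in MEFs + ALL + nilotinib, 9.65 in MEFs + ALL + DMSO, 9.64, 9.57 and 9.72 in MEFs + nilotinib and 9.69, 9.67 and 9.66 in MEFs + DMSO. The nilotinib co-cultures were the lowest 3 of the 10, with a difference of -0.26 ± 0.07 over MEFs + DMSO (limma, adjusted p = 0.133), while the MEFs + ALL + DMSO array lay among the arrays without ALL cells. Asns, the asparagine synthetase that is the textbook target of this response, was at 11.98, 11.90 and 11.95 in MEFs + ALL + nilotinib, 11.81 in MEFs + ALL + DMSO, 12.07, 12.19 and 12.17 in MEFs + nilotinib and 12.06, 12.06 and 12.06 in MEFs + DMSO. The separation was complete but small, -0.12 ± 0.06 over MEFs + DMSO (limma, adjusted p = 0.349).

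The 3 enzymes of serine synthesis differed in sign over MEFs + DMSO and not over MEFs + nilotinib, and none passed the test in either comparison. Phgdh, the first of them, was at 9.54, 9.51 and 9.41 in MEFs + ALL + nilotinib, 9.89 in MEFs + ALL + DMSO, 9.74, 9.77 and 9.86 in MEFs + nilotinib and 9.65, 9.67 and 9.66 in MEFs + DMSO. It lay lowest in the nilotinib co-cultures, with differences of -0.17 ± 0.06 over MEFs + DMSO and -0.30 ± 0.06 over MEFs + nilotinib, neither of which passed (limma, adjusted p = 0.232 and 0.155). Psat1 and Psph, the following enzymes, differed from MEFs + DMSO by -0.07 and 0.06 and from MEFs + nilotinib by -0.13 and -0.10. For all 3 enzymes the nilotinib co-cultures lay below MEFs + nilotinib without overlap (7.14% of all genes), and MEFs + nilotinib lay above MEFs + DMSO without overlap (15.1% of all genes), by 0.13, 0.06 and 0.17. These patterns share the same 3 MEFs + nilotinib arrays, so they are not independent. Shmt2, which takes serine into mitochondrial one-carbon units, was at 9.23, 9.04 and 9.18 in MEFs + ALL + nilotinib, 9.81 in MEFs + ALL + DMSO, 9.24, 9.17 and 9.23 in MEFs + nilotinib and 9.24, 9.16 and 9.22 in MEFs + DMSO, so that the 9 other arrays overlapped and only the MEFs + ALL + DMSO array stood apart.

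None of the 8 amino acid transporters was called in MEFs + ALL + nilotinib over either group without ALL cells, and their median difference from MEFs + DMSO was -0.17. Slc7a11, the cystine and glutamate exchanger, was at 8.40, 8.26 and 8.34 in MEFs + ALL + nilotinib, 7.70 in MEFs + ALL + DMSO, 8.62, 8.47 and 8.54 in MEFs + nilotinib and 8.66, 8.63 and 8.66 in MEFs + DMSO. The groups followed one another without overlap between those with and those without ALL cells, and its difference of -0.32 ± 0.06 over MEFs + DMSO did not pass (limma, adjusted p = 0.0772). Slc7a5, the large neutral amino acid transporter, was at 10.53, 10.80 and 10.59 in MEFs + ALL + nilotinib, 10.51 in MEFs + ALL + DMSO, 11.04, 10.56 and 10.87 in MEFs + nilotinib and 11.04, 11.14 and 11.18 in MEFs + DMSO. Its co-cultures lay below MEFs + DMSO, with a difference of -0.48 ± 0.13, and overlapped with MEFs + nilotinib, with one of -0.18 ± 0.13 (limma, adjusted p = 0.136 and 0.679). Slc6a9, a glycine transporter, was at 9.48, 9.47 and 9.48 in MEFs + ALL + nilotinib, 9.09 in MEFs + ALL + DMSO, 9.63, 9.49 and 9.66 in MEFs + nilotinib and 9.64, 9.79 and 9.74 in MEFs + DMSO, a difference of -0.25 ± 0.07 from MEFs + DMSO (limma, adjusted p = 0.15). Slc7a3, a carrier of arginine and other cationic amino acids, was at 7.99, 7.92 and 7.96 in MEFs + ALL + nilotinib, 7.66 in MEFs + ALL + DMSO, 8.06, 8.16 and 8.22 in MEFs + nilotinib and 8.17, 8.19 and 8.06 in MEFs + DMSO. Both Slc6a9 and Slc7a3 were lowest on the MEFs + ALL + DMSO array and next lowest in the nilotinib co-cultures. Slc1a5, a glutamine transporter, ran the other way, at 9.24, 9.34 and 9.38 in MEFs + ALL + nilotinib, 9.94 in MEFs + ALL + DMSO, 9.19, 8.94 and 9.04 in MEFs + nilotinib and 9.15, 9.21 and 9.16 in MEFs + DMSO. All its arrays with ALL cells lay above those without, and the nilotinib co-cultures did so by 0.15 ± 0.08 over MEFs + DMSO (limma, adjusted p = 0.398). Slc3a2, the partner chain of Slc7a5 and Slc7a11, and Slc7a1 and Slc1a4 differed from MEFs + DMSO by -0.10, -0.16 and 0.01.

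The 8 measured cytosolic tRNA synthetases, which load amino acids onto tRNAs, were not called in MEFs + ALL + nilotinib over MEFs + DMSO either. A negative difference was found for 7 of them, beside 9967 of all 19938 genes, and their median was -0.11. Tars, for threonine, stood apart from the others at 9.78, 9.66 and 9.93 in MEFs + ALL + nilotinib, 9.59 in MEFs + ALL + DMSO, 10.31, 9.88 and 9.80 in MEFs + nilotinib and 10.37, 10.40 and 10.29 in MEFs + DMSO. Its difference was -0.56 ± 0.13 over MEFs + DMSO (limma, adjusted p = 0.112) and -0.21 ± 0.13 over MEFs + nilotinib (limma, adjusted p = 0.664), since replicates 2 and 3 of MEFs + nilotinib overlapped with the co-cultures. Cars, for cysteine, was at 10.27, 10.20 and 10.38 in MEFs + ALL + nilotinib, 10.29 in MEFs + ALL + DMSO, 10.38, 10.53 and 10.52 in MEFs + nilotinib and 10.38, 10.48 and 10.48 in MEFs + DMSO, a difference of -0.17 ± 0.07 from MEFs + DMSO (limma, adjusted p = 0.314). Gars, for glycine, was at 11.73, 11.64 and 11.71 in MEFs + ALL + nilotinib, 11.63 in MEFs + ALL + DMSO, 11.82, 11.79 and 11.85 in MEFs + nilotinib and 11.83, 11.82 and 11.84 in MEFs + DMSO. Its arrays with ALL cells lay below the rest by little, -0.13 ± 0.05 over MEFs + DMSO (limma, adjusted p = 0.277). Nars, Sars, Wars, Yars and Mars differed by -0.11, -0.06, -0.11, 0.03 and -0.07.

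The dishes of MEFs + nilotinib were not alike for some of these genes. In Sesn2, Vldlr and Tars replicate 1 lay with the MEFs + DMSO arrays and more than 0.3 above both other replicates. Replicate 1 also lay more than 0.3 above both others in genes outside the 40, Col1a1 and Syvn1 among them. The widest SDs of the 40 genes in MEFs + nilotinib were those of Sesn2 (0.33), Vldlr (0.29), Tars (0.28) and Slc7a5 (0.24, n = 3 each). The median SD in that group was 0.078 over the 40 genes and 0.092 over all genes. In MEFs + DMSO the widest was 0.11, of Atf3. MEFs + nilotinib lay below MEFs + DMSO without overlap in 4 of the 40 genes, Chac1, Slc7a11, Slc7a5 (by less than the second decimal) and Slc3a2 (6.64% of all genes), and above in 7, Ddit3, Nupr1, Ppp1r15a, Asns, Psat1, Phgdh and Psph (15.1% of all genes).

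On the lone array of MEFs + ALL + DMSO, 11 of the 40 genes were called against MEFs + DMSO. Lower were Chac1, Trib3, Sesn2, Cth, Aldh1l2, Slc7a11, Slc7a3, Slc6a9 and Tars, 9 of 40 or 22.5%, where 4.45% of all genes were called lower, and higher were Shmt2 and Slc1a5, 2 of 40 or 5%, where 8.28% of all genes were called higher. Of the 40 genes, 33 lay below all 3 MEFs + DMSO arrays, where 48.7% of all genes did, with 1 array against 3. The median difference was -0.20 for the 40 genes and -0.07 for all genes. The lowest values, relative to MEFs + DMSO, were those of Chac1 at -1.06 ± 0.09 (limma, adjusted p = 0.000162), Cth at -0.96 ± 0.11 (0.00111) and Slc7a11 at -0.95 ± 0.09 (0.000302). Trib3 and Sesn2 followed at -0.81 ± 0.14 and -0.81 ± 0.21 (limma, adjusted p = 0.00921 and 0.0445), Tars at -0.76 ± 0.19 (0.0398), Slc6a9 at -0.63 ± 0.10 (0.00492), Aldh1l2 at -0.56 ± 0.10 (0.0116) and Slc7a3 at -0.48 ± 0.10 (0.0171). Slc1a5 was higher by 0.77 ± 0.11 (limma, adjusted p = 0.0034) and Shmt2 by 0.61 ± 0.10 (0.00539). In this comparison 8 of the 10 B lymphoblast and 8 of the 9 leukocyte markers were called higher, with medians of 2.20 and 1.81, and their part in the values of the 11 genes was not tested. With 1 array there is no spread of its own, so limma lends it that of the other groups. The calls of Sesn2 and Tars were lost in 7 and 6 of the 9 fits that left out a single replicate, with adjusted p up to 0.0986 and 0.0926, both without replicate 2 of MEFs + DMSO, and that of Slc7a3 was lost without the same replicate (0.0538).

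Set against that array, the nilotinib co-cultures were lower in Shmt2 (-0.66 ± 0.10, limma, adjusted p = 0.00427), Slc1a5 (-0.62 ± 0.11, 0.0144) and Phgdh (-0.40 ± 0.09, 0.0412), 3 of 40 where 5.11% of all genes were called lower, and higher in Slc7a11 (0.63 ± 0.09, 0.00437), 1 of 40 where 0.777% of all genes were called higher. Chac1 and Trib3 did not pass in this comparison, at 0.17 ± 0.09 and 0.13 ± 0.14 (limma, adjusted p = 0.383 and 0.672). The call of Phgdh was lost without any 1 of the 9 replicated arrays (adjusted p 0.0529 to 0.0978). Here 8 of the 10 B lymphoblast and 7 of the 9 leukocyte markers were called lower, and their part was not tested. The test of whether ALL cells made another difference under nilotinib than under DMSO called Phgdh and Shmt2 on the lower side, 2 of 40 where 4.6% of all genes were called lower, and Slc7a11 on the higher side, 1 of 40 where 0.386% of all genes were. For Slc7a11 the difference made by ALL cells was -0.21 under nilotinib and -0.95 under DMSO, so the interaction was 0.74 ± 0.11 (limma, adjusted p = 0.00678). That of Phgdh was lost in 6 of the 9 fits without a single replicate (adjusted p up to 0.0826). For Chac1 the same pair was -0.76 and -1.06 and the interaction, 0.30 ± 0.11, did not pass (limma, adjusted p = 0.196).

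Of the other genes of the pathway, taken from 5 lists of their own with 73 measured genes in all, none was called in MEFs + ALL + nilotinib over MEFs + DMSO, where 0.11% of all genes were called lower and 0.732% higher. Of 13 measured kinases and control factors of eIF2, 0 were called in either direction, the largest differences being those of the kinase Eif2ak2 (-0.18 ± 0.16) and the adaptor Nck1 (-0.18 ± 0.10). Of 16 further ATF4 targets 0 were called, with the largest differences in Map1lc3b, of autophagy (0.27 ± 0.07, limma, adjusted p = 0.126), and Mthfd1l, of mitochondrial folate metabolism (0.24 ± 0.06, 0.101). Of 18 chaperones and factors of the unfolded protein response 0 were called, led by Sdf2l1 (-0.28 ± 0.12) and Syvn1 (-0.23 ± 0.15). Of the 10 other cytosolic and 16 mitochondrial tRNA synthetases 0 were called, led by Eprs (-0.30 ± 0.07) and Hars (0.22 ± 0.06) among the cytosolic and Yars2 (0.24 ± 0.07) and Nars2 (-0.17 ± 0.12) among the mitochondrial enzymes. The medians of these 5 lists ran from -0.05 to 0.04. At an unadjusted p under 0.05 limma marked 3 of the 73 genes as lower and 5 as higher, beside 6.96% and 10.9% of all genes. Over MEFs + nilotinib none of the 73 was called either, but 11 were lower and 1 higher at an unadjusted p under 0.05, beside 4.22% and 5.23% of all genes. In that comparison 15 of the 16 further ATF4 targets had a negative difference, with a median of -0.08, beside 10445 of all 19938 genes. In MEFs + nilotinib over MEFs + DMSO 15 of the 16 had a positive one, with a median of 0.09, beside 10503 of all 19938. Both comparisons use the same MEFs + nilotinib arrays. In MEFs + ALL + nilotinib over MEFs + DMSO 10 of the 16 differences were negative, with a median of -0.03.

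On the MEFs + ALL + DMSO array Mthfd1l was at 9.83, against 8.83, 8.88 and 8.87 in MEFs + DMSO, and was called higher by 0.97 ± 0.08 (limma, adjusted p = 0.000105). Sars2 and Yars2 were called higher there by 0.50 ± 0.11 and 0.52 ± 0.10 (limma, adjusted p = 0.0268 and 0.0143). Eprs and Eif4ebp1, a translation repressor, were called lower at -0.40 ± 0.10 and -0.34 ± 0.09 (limma, adjusted p = 0.0396 and 0.0404). In all, 3 of the 73 genes were called higher on this array and 2 lower, beside 8.28% and 4.45% of all genes. The part of the B lymphoblast and leukocyte markers in these calls was not tested.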

How the data were processed

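RNA from each dish of MEFs was hybridised to an Affymetrix Mouse Gene 1.0 ST array, and 10 arrays in 4 groups were analysed. The authors deposited log2 signals of probesets, which they describe as RMA-normalized, and the submitters' notes name the software Partek, with no version. Other settings are not stated. The number of arrays limits the precision.

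Each gene was read from the probeset with 1 symbol in the platform annotation that had the highest mean over the 10 arrays. In this way 40 of the 42 genes were measured, each on 1 such probeset, and all 40 matched RefSeq (GRCm38.p6) by gene ID, which was used for names and promoters. Groups were compared by limma 3.58.1 under R 4.3.3 (lmFit, eBayes, 4 group means, no block, two-sided, Benjamini-Hochberg over 35557 probesets, threshold 0.05). Shares of all genes are over the 19938 genes with a probeset of their own. The alternatives were trend and robust fitting, array weights, quantile normalization, centring on the median, fewer groups or arrays, a minimum mean log2 of 6, a replicate block, and the mean of all probesets of a gene.

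Values by array are given for genes past the test in any of the 6 comparisons and, in each of 5 groups by role, for the 3 with the largest difference in MEFs + ALL + nilotinib over MEFs + DMSO. Of other pathway lists, members past the test or else the 2 largest are named, and of marker lists up to 4. Asns, Ddit3, Vldlr and Herpud1 were given values beyond this rule, after their values were seen. The genes, lists and comparisons were chosen with earlier results of these data known. The fit was also tested on simulated data in which 200 of 35557 probesets differed between MEFs + ALL + nilotinib and MEFs + DMSO. It found 39.5% of them for a difference of 0.5 on the log2 scale, 79.0% for 1 and 96.0% for 2, beside 8, 8 and 5 false calls. For MEFs + ALL + nilotinib over MEFs + ALL + DMSO it found 0.0%, 59.0% and 91.0%, and for the interaction 0.0%, 44.5% and 85.0%. In the data more probesets than the simulated 200 were called there, 1336 lower and 207 higher, and 1264 lower and 142 higher. The adjusted threshold is less strict with more calls, so these shares do not carry over to the data, where Phgdh was called at -0.40 and -0.53. How often a difference near 0.5 would go uncalled there was not tested.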

Additional observations from a re-analysis of the deposited data

Results flagged for a closer look

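For 3 of the 40 genes the difference made by ALL cells under nilotinib differed from that under DMSO by limma's test of the interaction, with p-values adjusted over all probesets. Of the 40 genes 2 were called lower (5%) and 1 higher (2.5%), beside 4.6% and 0.386% of all genes. Slc7a11 differed by 0.74 (adjusted p = 0.00678), from -0.21 under nilotinib and -0.95 under DMSO. Shmt2 differed by -0.67 (adjusted p = 0.0142), from -0.07 and 0.61, and Phgdh by -0.53 (adjusted p = 0.0322), from -0.30 and 0.23. The call of Phgdh was lost in 6 of the 9 fits without a single replicate, with quantile normalization (adjusted p = 0.0919) and with each array centred on its median (0.054). All 3 rest on the single MEFs + ALL + DMSO array, on which 8 of 10 B lymphoblast markers were called higher than in MEFs + DMSO, and the part of those markers in the 3 values was not tested. Groups of 3 arrays were too small for a check of single arrays that stand far from the rest.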

How the results depend on the processing

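Chac1 was called lower in MEFs + ALL + nilotinib over MEFs + DMSO under all 18 alternatives (adjusted p 0.00186 to 0.0484), and over MEFs + nilotinib under 16 of 18 (0.00343 to 0.0798), all but the fit with only the groups compared and that with the replicate block. The count of called genes in MEFs + ALL + nilotinib over MEFs + DMSO, 3, became 10 with array weights, 5 with a mean log2 of at least 6, 1 with only the groups compared and 1 to 4 without single replicates. Over MEFs + nilotinib the count of 2 became 1 with each array centred on its median, 0 with only the groups compared and 1 in each fit without a single replicate. MEFs + nilotinib over MEFs + DMSO kept 0 calls throughout. Over MEFs + DMSO, the 11 calls of MEFs + ALL + DMSO became 17 with trend and robust fitting, 17 with quantile normalization and 8 to 14 without single replicates. The 4 calls of MEFs + ALL + nilotinib over MEFs + ALL + DMSO became 0 with only the groups compared and 3 to 5 without single replicates, and the 3 of the interaction 2 to 5, with 5, Tars and Vldlr added, without replicate 1 of MEFs + nilotinib. Fits with fewer groups or arrays have fewer degrees of freedom. The cause of the shifts in these counts was not tested. Shares of all genes called are given only for the fit without these alternatives. The counts under the alternatives were not set beside the calls among all genes in the same fits. A higher count there thus does not show a stronger result for the listed genes than for the array as a whole. The replicate numbers did not pair the dishes (correlations of same-numbered deviations -0.293 to 0.241), and with the replicate block 1, 0 and 0 genes were called in MEFs + ALL + nilotinib over MEFs + DMSO, over MEFs + nilotinib, and in MEFs + nilotinib over MEFs + DMSO. Of 969 single-gene checks 880 kept their direction and side of the threshold, 73 lost and 15 gained a call, and 1 changed sign. That was Shmt2 in MEFs + ALL + nilotinib over MEFs + DMSO, at -0.05 with all arrays, between -0.10 and 0.00 without single replicates, and 0.00 without replicate 2 of MEFs + ALL + nilotinib.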
